A study of Homo sapiens with 6 samples.

Results

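The genes examined here are those encoded by the mitochondrial genome itself, taken as the rows of the deposited gene table whose symbol starts with MT-. There are 37 such rows of 58735 in the table: 13 protein genes, 2 rRNAs and 22 tRNAs. They were measured in VCaP, an established human prostate cancer cell line with the TMPRSS2-ERG fusion. The control cells had been stably infected with a non-targeting short hairpin RNA (shNTC), and the comparison cells with a short hairpin RNA against NEDD9 (shNEDD9). Both were VCaP cells kept in medium with 10% foetal bovine serum, and each group has 3 libraries of total RNA that the design text calls biological triplicates. The labels do not give the hairpin sequences or say whether infected cells were pooled or cloned. The study asked which genes change when NEDD9 is silenced.

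Human mitochondrial DNA is a small circle that is transcribed from both strands into long precursors, which are cut into separate RNAs mostly at the tRNAs that lie between the genes. Its protein genes encode core subunits of respiratory complexes I, III and IV and of the ATP synthase, complex V, while every other subunit and all factors that copy, transcribe and process mitochondrial DNA come from nuclear genes. The heavy-strand precursor carries all protein genes but MT-ND6, and the light-strand precursor carries MT-ND6 and several tRNAs.

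Some sequences show how tightly these genes are packed, which bears on how reads were assigned. All are from the transcripts of GENCODE release 29 (GRCh38), 5′ to 3′, as DNA letters. The first 3 lines are the tRNA genes with the most counts among those whose groups did not overlap, with the anticodon in capitals.
MT-TY (chrM:5826-5891, minus strand): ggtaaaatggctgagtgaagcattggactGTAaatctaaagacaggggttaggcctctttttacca
MT-TC (chrM:5761-5826, minus strand): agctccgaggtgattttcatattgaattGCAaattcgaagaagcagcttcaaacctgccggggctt
MT-TI (chrM:4263-4331, plus strand): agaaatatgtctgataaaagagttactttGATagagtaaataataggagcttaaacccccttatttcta
The 46 bases that MT-ATP8 and MT-ATP6 share are shown next, with the first codon of MT-ATP6 and the last codon of MT-ATP8 in capitals.
MT-ATP8/MT-ATP6 (chrM:8527-8572, plus strand): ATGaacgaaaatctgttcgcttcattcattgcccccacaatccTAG
The last 30 bases of MT-ND5 and of MT-ND6, which meet end to end from opposite strands, and of MT-CO1 follow with the last codon in capitals.
MT-ND5 (chrM:14119-14148, plus strand): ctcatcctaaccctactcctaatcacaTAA
MT-ND6 (chrM:14149-14178, minus strand): attgtaattgagattgctcgggggaatAGG
MT-CO1 (chrM:7416-7445, plus strand): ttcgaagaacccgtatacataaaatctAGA
The annotation held 5 overlaps among the 37 genes. Beside the 46 bases above, MT-ND4L and MT-ND4 share 7 bases, MT-TI and MT-TQ on opposite strands share 3, and MT-TC with MT-TY and MT-ATP6 with MT-CO3 share 1 base each. MT-ND6, the only protein gene of the minus strand, has 35.6% G and 7.05% C in its transcript, whereas MT-ND5 has 10.6% G and 34.3% C. The strand setting of the counting was not given in the sources used here, so reads of a gene and of RNA from its opposite strand cannot be told apart.

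The libraries held 3217276 to 9902002 counts. NEDD9, the scaffold protein gene that was targeted, had 362.3, 339.3 and 365.4 CPM in the control libraries and 137.1, 138 and 135.9 in shNEDD9 (log2 fold change -1.39, SE 0.04; CPM are counts per 1e6 counts of the library, scaled with TMM factors; edgeR adjusted p below 1e-300). Of 10 VCaP and prostate epithelial markers, all were detected, 6 fell, and the summed level of the list was 5710 to 5753 CPM of the library total in shNTC and 6373 to 6376 in shNEDD9. Of 14 markers of blood, endothelial and stromal cells, 3 could be tested, of which LYZ and COL1A1 fell (35.9% of all genes tested fell), and the defining markers CD3E, CD68 and CDH5 had 0 counts. Their sum was 23.5 to 38.2 CPM in control and 9.74 to 11.3 CPM in shNEDD9 libraries, and its part in the results was not tested. Within a group, any 2 libraries differed a little beyond counting error (chi-square per degree of freedom 1.14 to 1.20). The labels do not say what was separate between replicates, so each p-value reflects library-to-library spread that may be technical only.

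Mitochondrially encoded RNA took a smaller share of every shNEDD9 library. The 37 rows made up 3.31%, 3.29% and 3.402% of the shNTC libraries and 2.43%, 2.39% and 2.39% of the shNEDD9 libraries. The groups did not overlap, and the mean share was 27.9% lower in shNEDD9 (2.40 ± 0.02% against 3.34 ± 0.06%, SD, n = 3 each, exact permutation test, two-sided, p = 0.1, as low as 3 against 3 libraries can go). Of 48 shares and ratios compared this way, 45 reached that smallest p, and the smallest p adjusted over all of them was 0.107. In these bulk libraries a lower share cannot tell less mitochondrial RNA per cell from more RNA of other genes, and fewer cells of a type and less RNA per cell cannot be told apart. All shares are of library counts, which need not mirror total RNA: rows annotated as small RNAs held only 0.018% to 0.026% of a library.

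The share was lower in each class. The 13 protein genes held 2.79%, 2.78% and 2.87% of counts in shNTC and 2.02%, 1.98% and 1.97% in shNEDD9, which is 29.3% lower. The 2 rRNAs held 0.514 ± 0.012% in shNTC and 0.409 ± 0.003% in shNEDD9, 20.4% lower. The 22 tRNAs held 0.00699 ± 0.00054% and 0.00388 ± 0.00010%, 44.5% lower. No class overlapped between groups (n = 3 each, exact permutation p = 0.1 for each). As a part of the mitochondrial counts alone, the protein genes were at 84.4 ± 0.1% in shNTC and 82.8 ± 0.3% in shNEDD9, and the rRNAs at 15.4 ± 0.1% and 17.0 ± 0.3%.

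**Figure D1:**
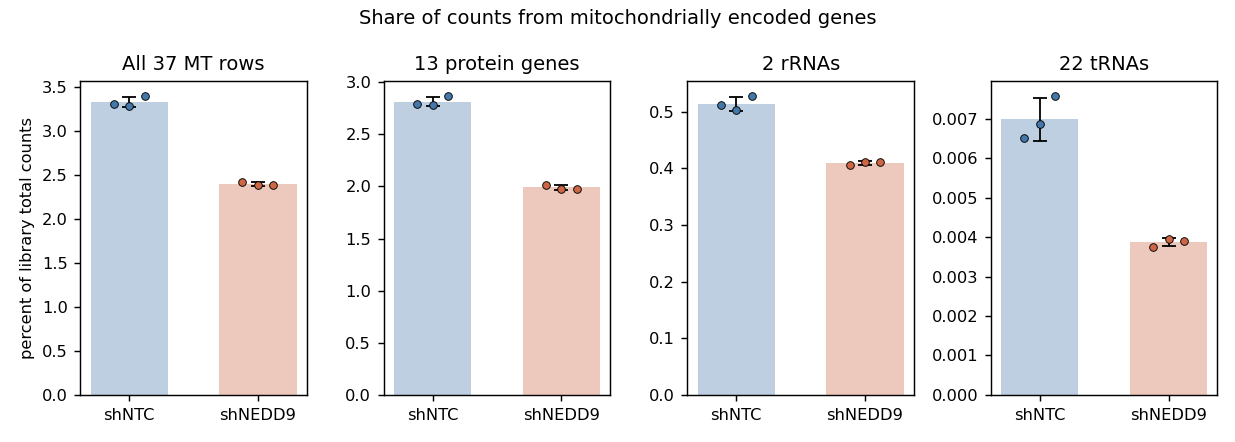
Percent of each library's total counts from all 37 MT rows and from the 3 classes, each panel on its own axis from 0; points are the 3 libraries of a group, bars their mean and error bars the SD. In each panel the 3 shNEDD9 points lie below the 3 shNTC points, at a mean of 2.40% against 3.34% for all rows.

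Of the 37 genes, 19 passed the filter on low counts, and all 19 fell in shNEDD9 at an adjusted p under 0.05: 13 protein genes, 2 rRNAs and 4 tRNAs (edgeR quasi-likelihood test, Benjamini-Hochberg adjustment over all 13958 genes tested). The call of 1 of these, MT-TL1, is weaker than the rest: it reached the filter minimum in 3 shNTC but only 2 shNEDD9 libraries and lost its call in DESeq2 and without either of 2 libraries, as given with the tRNAs. None rose (0 also at an unadjusted p under 0.05 and in DESeq2 and limma-voom). Over all genes tested, 35.9% fell, 35.5% rose and 71.4% were called in either direction. Groups did not overlap for 18 of the 19, against 71.8% of all genes tested. The median log2 fold change of the 13 protein genes was -0.42, while that of all genes tested was 0.00, and 25.4% of all genes tested were at or below the median of the 13. The changes ranged widely, from -0.16 for MT-ND3 to -1.23 for MT-ND6.

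The 7 mitochondrial genes of complex I, the NADH dehydrogenase, spanned that whole range. MT-ND6 (chrM:14149-14673), a membrane subunit gene, had 843, 781 and 813 CPM in shNTC and 353, 349.6 and 341 CPM in shNEDD9. It was 57.4% lower, the largest decrease of the protein genes (log2 fold change -1.23, SE 0.03, edgeR adjusted p below 1e-300). Its counts may include RNA of the opposite strand, as the strand setting of the counting was not given. MT-ND5 (chrM:12337-14148), which encodes a proton-pumping subunit and abuts MT-ND6 on the other strand, had 2459, 2554 and 2571 CPM in shNTC and 1207, 1156 and 1143 in shNEDD9. The groups were far apart, with a 2.16-fold decrease (log2 fold change -1.11, SE 0.02, edgeR adjusted p below 1e-300). MT-ND1 (chrM:3307-4262), the first protein gene after the rRNAs, had 1427, 1465 and 1482 CPM against 793, 822 and 825 CPM and was 44.1% lower (log2 fold change -0.84, SE 0.02, edgeR adjusted p = 9.83e-283).

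The other complex I genes fell by less. MT-ND4 and MT-ND4L, which overlap and are carried on 1 messenger, fell by 0.48 (SE 0.02) and 0.51 (SE 0.03) on the log2 scale, from 4914 ± 63.0 to 3533 ± 85.5 CPM and from 531 ± 19.3 to 374 ± 15.3 CPM (n = 3 each). MT-ND2 had 1590, 1601 and 1686 CPM in shNTC and 1300, 1245 and 1223 in shNEDD9, 22.9% lower. MT-ND3, a short gene for a membrane subunit, had 991, 952 and 1018 CPM in shNTC and 854, 870 and 922 in shNEDD9. Its groups came close without overlapping, and its decrease of 10.7% was the smallest of the 13 (log2 fold change -0.16, SE 0.02, edgeR adjusted p = 1.68e-11).

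The 3 genes of complex IV, the cytochrome c oxidase, did not fall alike. MT-CO1 (chrM:5904-7445), which encodes the catalytic subunit with the heme and copper site, had 5211, 5136 and 5241 CPM in shNTC and 3122, 3051 and 3012 in shNEDD9. It was 41.1% lower (log2 fold change -0.76, SE 0.02, edgeR adjusted p = 1.84e-299). MT-CO2 (chrM:7586-8269), which encodes the subunit that takes electrons from cytochrome c, had 3820, 3625 and 3921 CPM against 3228, 3227 and 3221, a decrease of 15.0%. MT-CO3 (chrM:9207-9990), for the remaining core subunit, had 2443, 2543 and 2576 CPM against 2149, 2067 and 2071, a decrease of 16.9%. Counts of MT-CO1 over those of MT-CO2 were 1.36, 1.42 and 1.34 in shNTC and 0.967, 0.946 and 0.935 with shNEDD9. The groups did not overlap in this ratio, which is not corrected for the length of the genes.

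MT-CYB (chrM:14747-15887), the cytochrome b gene and the only one of complex III, lies just past MT-ND6 and fell from 2016 ± 40.2 to 1539 ± 43.6 CPM (log2 fold change -0.39, SE 0.02). For complex V, MT-ATP6 (chrM:8527-9207), which encodes the proton channel subunit, fell from 1778 ± 28.3 to 1330 ± 59.4 CPM (log2 fold change -0.42, SE 0.02). MT-ATP8 (chrM:8366-8572), a small membrane subunit gene on the same messenger, had 238, 246 and 256 CPM in shNTC and 198, 219 and 225 in shNEDD9, and fell by 0.19 (SE 0.04). Counts of MT-ATP8 over MT-ATP6 were 0.136, 0.138 and 0.142 in shNTC. In shNEDD9 they were 0.142, 0.171 and 0.172, so the lowest shNEDD9 library was close to the highest control. The weakest of these 3 calls was that of MT-ATP8 (edgeR adjusted p = 1.56e-07).

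**Figure D2:**
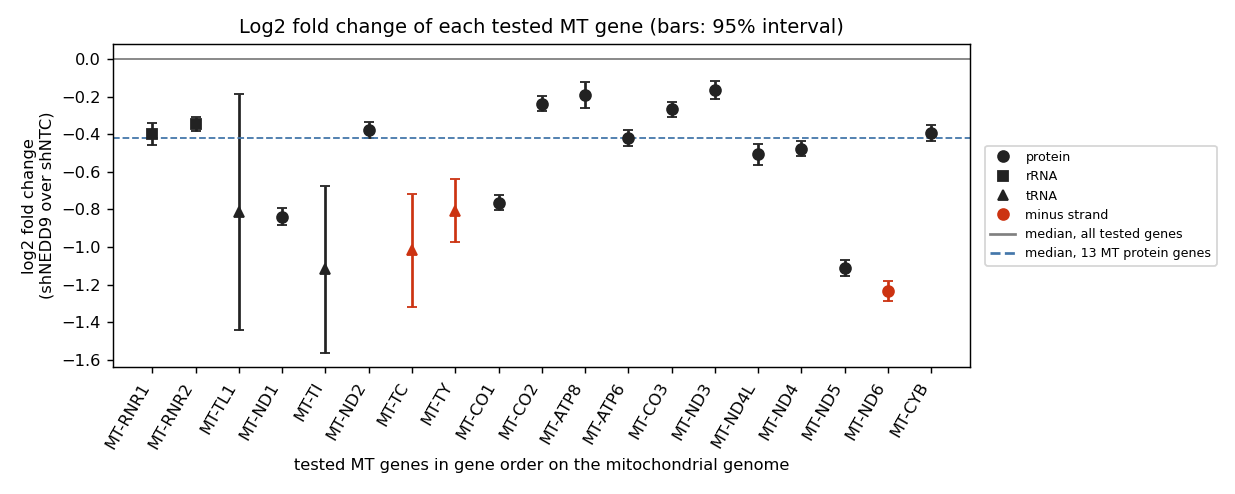
Log2 fold change of the 19 tested MT genes (y axis, shNEDD9 over shNTC, bars the 95% interval from the SE) in their order along the mitochondrial genome (x axis); circles are protein genes, squares rRNAs, triangles tRNAs, and red marks the minus strand. MT-ND6 and MT-ND5 are the lowest protein genes at -1.23 and -1.11, with MT-CYB beside them at -0.39.

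The differences among members were tested against the summed counts of the 13 protein genes in place of the library size. On this scale 4 protein genes fell (MT-ND6 by 0.71, MT-ND5 by 0.59, MT-ND1 by 0.32 and MT-CO1 by 0.25), with SE of 0.02 to 0.03 on the log2 scale. 7 protein genes were higher relative to the sum, by 0.10 for MT-ATP6 to 0.36 for MT-ND3, and both rRNAs were higher, MT-RNR1 by 0.12 and MT-RNR2 by 0.17. MT-ND4 (0.04, SE 0.02, edgeR adjusted p = 0.0687) and MT-ND4L (0.02, SE 0.03, edgeR adjusted p = 0.665) were not called. Being higher relative to the sum is not a rise: each of these genes had a lower CPM in shNEDD9. The 13 protein genes are their own reference here, so once some lie below their sum, others must lie above it. Of the 19 members, 7 were lower and 9 higher on this scale. Of all genes tested, 81% were called on it, 13.7% lower and 67.3% higher.

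Neighbouring genes of 1 strand differed in size of decrease. MT-ND5 counts were 0.505, 0.523 and 0.516 of those of MT-ND4, the protein gene before it, in shNTC and 0.333, 0.334 and 0.325 with shNEDD9. MT-CYB, the next plus strand protein gene, had 0.801, 0.796 and 0.796 counts for each count of MT-ND5 in shNTC and 1.32, 1.31 and 1.32 in shNEDD9. These are ratios of counts not corrected for length; the groups did not overlap. MT-ND1 counts per count of MT-ND2 were 0.897, 0.915 and 0.879 in shNTC and 0.610, 0.660 and 0.675 with shNEDD9. MT-ND6 counts per count of MT-ND5, on the opposite strand, were 0.343, 0.306 and 0.316 in shNTC and 0.293, 0.302 and 0.298 with shNEDD9. The groups came close here but did not overlap. MT-ND4L over MT-ND4 was 0.108 ± 0.003 and 0.106 ± 0.006, with overlapping groups (n = 3 each, exact permutation p = 0.8).

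As a description across genes, the rank correlation of the log2 fold change with gene order was -0.06 over the 12 plus strand protein genes. Over all 13 it was -0.42 with length, -0.27 with GC content and 0.29 with the shNTC level per length. These genes share their libraries and precursors and are not independent. The 9 minus strand genes together made up 2.69%, 2.52% and 2.55% of mitochondrial counts in shNTC and 1.59%, 1.603% and 1.56% in shNEDD9. Nearly all of this was from MT-ND6 (2.41 ± 0.10% and 1.45 ± 0.02%). As the strand setting of the counting was not given, these counts may include RNA of the opposite strand.

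The rRNAs of the mitochondrial ribosome fell by similar amounts. MT-RNR2 (chrM:1671-3229), the large subunit rRNA, had 4728, 4688 and 4889 CPM in shNTC and 3738, 3755 and 3781 in shNEDD9, 21.2% lower (log2 fold change -0.34, SE 0.02, edgeR adjusted p = 6.43e-63). MT-RNR1 (chrM:648-1601), the small subunit rRNA, had 421, 402 and 441 CPM against 318, 322 and 325, 24.1% lower (log2 fold change -0.40, SE 0.03, edgeR adjusted p = 6.3e-40). Counts of MT-RNR2 over MT-RNR1 were 11.3 ± 0.3 in shNTC and 11.7 ± 0.05 in shNEDD9, with overlapping ranges. Whether rRNA was depleted before sequencing was not given in the sources used here, so the level of the rRNAs against the messengers carries that limit. Protein gene counts per rRNA count were 5.46, 5.52 and 5.43 in shNTC and 4.97, 4.82 and 4.80 with shNEDD9.

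The tRNAs were thinly covered, with 2118 counts over all 22 genes and 6 libraries. Of the 22, 7 had 0 counts in every library (MT-TQ, MT-TW, MT-TA, MT-TN, MT-TS1, MT-TD and MT-TK), which allows up to 3 counts or 0.0735 CPM over the 6 libraries together. MT-TY, the tyrosine tRNA gene, held 1271 of the counts. It had 39.8, 39.3 and 44.8 CPM in shNTC and 24.2, 24.0 and 23.3 in shNEDD9 and was 42.8% lower (log2 fold change -0.81, SE 0.09, edgeR adjusted p = 3.83e-20). MT-TC, the cysteine tRNA gene beside it, had 11.7, 15.4 and 14.6 CPM against 6.88, 6.23 and 6.86 (log2 fold change -1.02, SE 0.15, edgeR adjusted p = 1.2e-10). Both lie on the minus strand, and the groups were apart in each.

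MT-TI, the isoleucine tRNA gene between MT-ND1 and MT-ND2, had 45, 26 and 38 counts in shNTC and 16, 22 and 32 in shNEDD9, or 6.05, 8.17 and 5.95 CPM against 2.69, 2.80 and 3.23. It fell by 1.12 (SE 0.23, edgeR adjusted p = 1.63e-06). MT-TL1, a leucine tRNA gene, had 13, 7 and 28 counts against 4, 12 and 22, and its groups overlapped. Its call (log2 fold change -0.81, SE 0.32, edgeR adjusted p = 0.0162) ended without shNTC replicate 3 (log2 fold change -0.24, adjusted p = 0.631), without shNEDD9 replicate 1 (-0.55, adjusted p = 0.131) and in DESeq2 (-0.88, adjusted p = 0.113).

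The other 18 tRNA genes were not tested and held 195 counts in all. The most counted were MT-TS2 with 25 counts in shNTC and 26 in shNEDD9, MT-TH with 21 and 26, MT-TP with 26 and 17, and MT-TM with 13 and 11. With no filter on low counts, the 11 of them with any count were tested, and the lowest adjusted p was that of MT-TP (log2 fold change -1.05, edgeR adjusted p = 0.0713). With a filter of a mean of 1 CPM in its place, MT-TP was called lower (-1.07, edgeR adjusted p = 0.0283) and MT-TH (-0.17) and MT-TS2 (-0.42) were not, so the call of MT-TP depends on the filter. Measured relative to the 13 protein genes, MT-TI (-0.60, SE 0.23), MT-TC (-0.50, SE 0.16) and MT-TY (-0.28, SE 0.09) fell further than their sum, and MT-TL1 (-0.30, SE 0.32) was not called (edgeR adjusted p of 0.011, 0.00203, 0.00186 and 0.388 in this order). The call of MT-TI ended without shNTC replicate 2 (-0.50, edgeR adjusted p = 0.05003). Reads of such short genes may come from precursors that also carry a neighbouring gene, which these counts cannot resolve.

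Levels of different genes can be compared only per length. On the scale of CPM per kilobase of gene, MT-CO2 was highest in both groups, at 5539 ± 219.6 in shNTC and 4715 ± 5.25 in shNEDD9 (SD, n = 3 each). In shNTC it was followed by MT-ND4 (3566 ± 45.7) and MT-CO1 (3370 ± 35.2), then by MT-CO3 (3215 ± 88.2) and MT-RNR2 (3059 ± 68.1), whose ranges overlapped. The lower end held MT-ND2, MT-ND6 and MT-ND1, which were at 1560, 1547 and 1525 with ranges that overlapped from each to the next, and MT-ND5 (1395 ± 33.3), MT-ATP8 (1192 ± 43.5) and MT-RNR1 (442 ± 20.4). In shNEDD9 MT-CO1 stood at rank 6 instead of 3, at 1986 ± 36.4, within the range of MT-ATP6 (1952 ± 87.2). MT-ND1 (851 ± 18.5), MT-ND6 (663 ± 12.02) and MT-ND5 (645 ± 18.6) stood below MT-ATP8 (1036 ± 68.5), and the ranges of MT-ND6 and MT-ND5 overlapped.

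**Figure D3:**
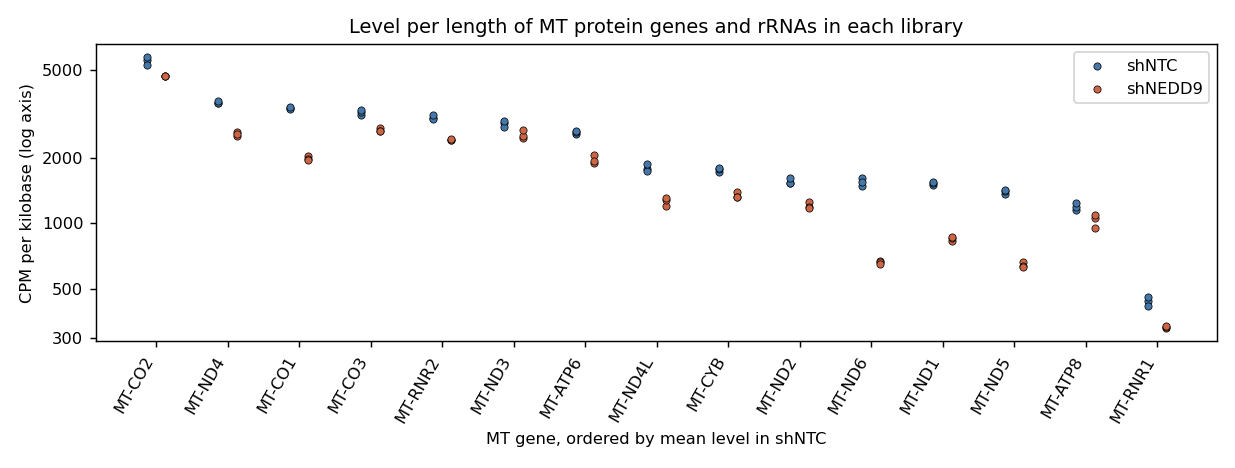
CPM per kilobase of gene (y axis, log scale) of the 13 protein genes and 2 rRNAs, ordered by their mean in shNTC (x axis); each point is 1 library. MT-CO2 is highest in both groups, and the widest gaps between the groups are at MT-ND6 and MT-ND5, with shNEDD9 at 663 and 645 against 1547 and 1395.

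Respiratory complexes draw subunits from both genomes, and their nuclear subunit genes moved the other way. Of 35 tested nuclear complex I genes 32 rose and 3 were not called (median log2 fold change 0.45), of 9 for complex III 9 rose (median 0.52), of 11 for complex IV 9 rose and 1 fell (median 0.48), and of 16 for complex V 15 rose and 1 was not called (median 0.53). These counts stand beside 35.5% of all genes tested that rose. Examples were NDUFS7 (18.1 ± 2.66 to 35.1 ± 2.02 CPM) and NDUFV1 (325 ± 19.8 to 568 ± 3.33 CPM) of complex I, CYC1 of complex III (167 ± 10.9 to 306 ± 10.9 CPM), COX5B of complex IV (84.3 ± 3.53 to 145 ± 1.24 CPM) and ATP5F1D of complex V (93.9 ± 5.53 to 191 ± 1.64 CPM, n = 3 each). On the log2 scale NDUFB10 and NDUFA10 rose by 0.72 and 0.64, the complex III genes UQCRC2, UQCRH and UQCRFS1 by 0.82, 0.64 and 0.52, and the complex IV genes COX6A1, COX4I1 and COX5A by 0.73, 0.59 and 0.56. The ATP synthase genes ATP5PO, ATP5F1B and ATP5MC3 rose by 0.82, 0.77 and 0.71. COX8A, a small subunit gene of complex IV, was the 1 that fell, by 0.48 (SE 0.03), and it is named here after its value was seen.

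The ratio of mitochondrially to nuclear-encoded counts within a complex does not depend on the library size. For complex I it was 5.00, 4.87 and 5.03 in shNTC and 2.41, 2.34 and 2.32 with shNEDD9 (log2 difference -1.08). Complex III went from 1.74, 1.70 and 1.80 to 0.948, 0.898 and 0.897 (log2 difference -0.93), and complex V from 0.535, 0.541 and 0.556 to 0.281, 0.273 and 0.273 (-0.98). In these 3 complexes the ratio in shNEDD9 was 0.474 to 0.524 of that in shNTC. On summed counts complex IV differed least, from 6.27, 6.32 and 6.39 to 4.18, 4.07 and 3.996 (log2 difference -0.63). With each gene weighted equally its difference was -0.79. Equal weighting is not reported here for the other complexes, so the rank of complex IV holds for sums only. Sums lean on the most counted genes. For nuclear complex IV this was COX8A, which fell from 622 to 447 CPM. For nuclear complex V it was ATP5F1B, which rose from 1436 to 2455 CPM. No complex overlapped between groups (n = 3 each, exact permutation p = 0.1 for each, as low as this design can go).

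**Figure D4:**
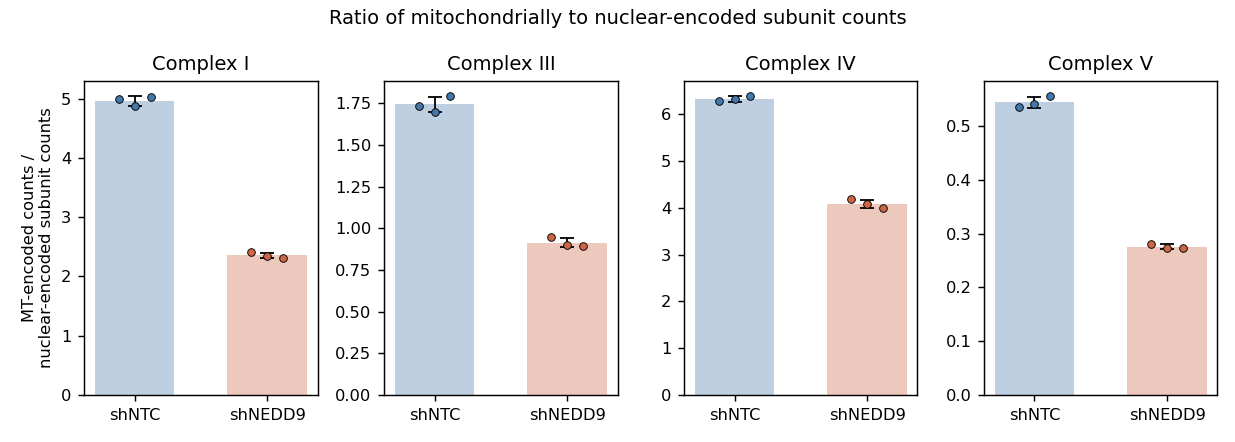
Counts of the mitochondrially encoded subunit genes over counts of the nuclear-encoded subunit genes of 4 respiratory complexes (y axes from 0, each panel its own scale); points are libraries, bars means and error bars SD of 3 libraries. Each panel shows the 3 shNEDD9 libraries below the 3 shNTC libraries, from a mean of 4.97 to 2.35 for complex I.

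Genes that transcribe mitochondrial DNA mostly rose or were not called. Of 11 tested, 7 rose and 4 were not called (median log2 fold change 0.33). TFAM, which packs mitochondrial DNA and starts its transcription, rose from 67.8 ± 1.99 to 138 ± 5.92 CPM (log2 fold change 1.03, SE 0.05), MRPL12 rose by 0.95, the rRNA methyltransferase gene TFB1M by 0.86 and POLDIP2 by 0.72. Of 20 genes of mitochondrial DNA replication and nucleotide supply, 14 rose and 2 fell (median 0.46). The exonuclease gene MGME1 rose by 1.62 (SE 0.07), DNA2, a nuclease and helicase gene, by 1.21, SUCLG1 by 1.11 and the topoisomerase gene TOP3A by 1.003. The 2 that fell were RRM2B (-0.38), of deoxynucleotide supply, and the ADP/ATP carrier gene SLC25A4 (-0.23), both named after their values were seen.

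Genes that cut, stabilise and degrade mitochondrial RNA went in both directions. Of 20 tested, 14 rose and 3 fell (median log2 fold change 0.45). LRPPRC, which binds and stabilises mitochondrial messengers, rose from 316 ± 4.53 to 546 ± 10.99 CPM (log2 fold change 0.79, SE 0.03), PNPT1, the degrading phosphorylase, by 0.84 and FASTKD2 by 0.80. REXO2, an exonuclease gene for short RNAs, fell from 365 ± 8.68 to 191 ± 2.09 CPM (log2 fold change -0.93, SE 0.03). The other 2 that fell, GRSF1 (-0.54), of mitochondrial RNA granules, and FASTKD5 (-0.21), are named after their values were seen. Of 23 genes that modify mitochondrial tRNA or rRNA, 19 rose and 1 fell (median 0.49), led by the methyltransferase gene MRM1 (1.40), the tRNA modification gene MTO1 (1.04), TRIT1 (0.86) and CDK5RAP1 (0.79). The 1 that fell was RPUSD3 (-0.18), named after its value was seen.

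Of 12 tested regulators of mitochondrial biogenesis, 6 rose and 4 fell (median 0.14). The transcription factor genes NRF1 and GABPA, which act on nuclear genes for mitochondria, rose by 0.67 (SE 0.09) and 0.51 (SE 0.09), whereas ESRRA, an orphan nuclear receptor gene, fell by 0.63 (SE 0.05) and TFEB, a lysosome regulator gene, by 0.90 (SE 0.11). The other 2 that fell, NFE2L2 (-0.44) and CREB1 (-0.28), are named after their values were seen. PPARGC1A, the coactivator gene, had 9 counts in all and was not tested. The background for these lists is again 35.5% risen and 35.9% fallen of all genes tested, and the lists share this comparison and its libraries.

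**Figure D5:**
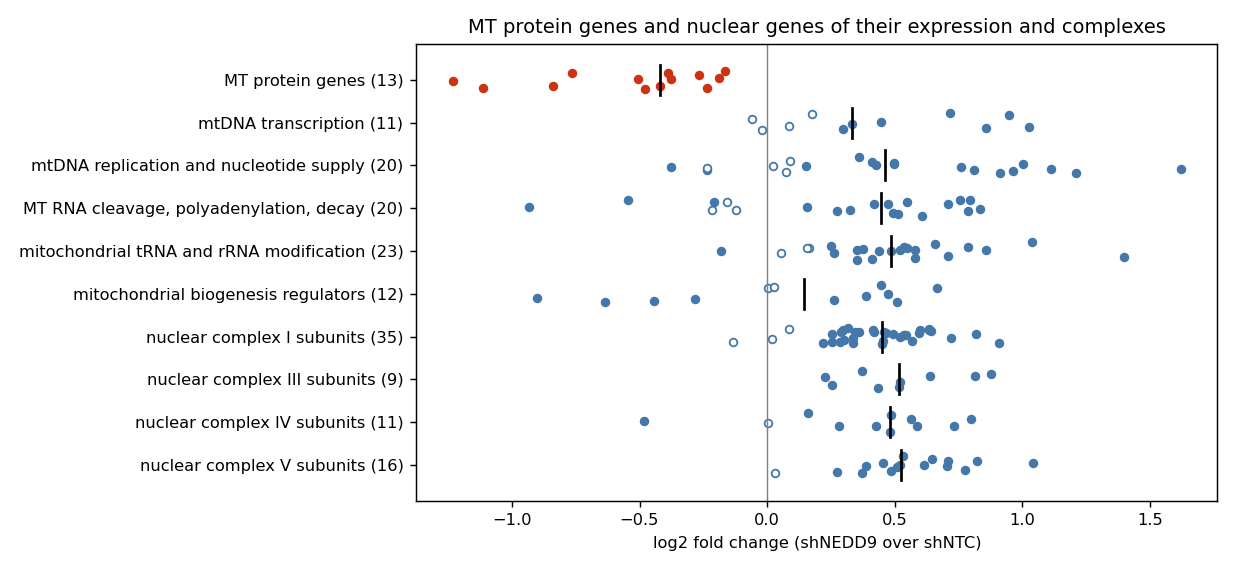
Log2 fold change (x axis, shNEDD9 over shNTC) of the 13 MT protein genes in red and of tested nuclear genes in 9 lists in blue, 1 point a gene; filled points passed the edgeR threshold, open points did not, the black bar is the list's median and the number of genes is in brackets. All MT points lie below 0, while the medians of the 9 nuclear lists lie between 0.14 and 0.53.

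Some RNAs of other classes also differed between the groups. Of 9 nuclear-retained or small structural RNAs, 4 were tested and 3 fell: MALAT1 (724 ± 90.4 to 164 ± 5.92 CPM), NEAT1 (1763 ± 46.3 to 1014 ± 1.23 CPM) and KCNQ1OT1 (5.62 ± 1.37 to 3.52 ± 0.73 CPM, n = 3 each, overlapping groups). Beside this count, 35.9% of all genes tested fell and 71.4% were called in either direction. RN7SL2, a gene of the signal recognition particle RNA, was higher in shNEDD9, with 4.30, 3.77 and 3.13 CPM in shNTC and 5.20, 28.6 and 6.96 CPM in shNEDD9. Its groups did not overlap, and shNEDD9 replicate 2 stood far above the others. It missed the threshold (edgeR adjusted p = 0.215, log2 fold change 1.86), but was called in DESeq2 (adjusted p = 0.0315), in limma-voom (adjusted p = 1.38e-05), with the replicate block (edgeR adjusted p = 1.25e-15), after thinning (edgeR adjusted p = 9.54e-17) and without shNEDD9 replicate 2 (log2 fold change 0.74, edgeR adjusted p = 0.0035). The summed level of the 9 was 2377 to 2560 CPM of the library total in shNTC and 1183 to 1215 in shNEDD9. The other 5 (RN7SK, RN7SL1, RMRP, RPPH1 and TERC) had 0 counts in all libraries, although some are abundant in most cells. The part of any such shift in RNA make-up in the lower mitochondrial share was not tested.

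Copies of mitochondrial DNA in the nuclear genome can take reads from the genes they copy. The table holds 405 such pseudogene rows, 350 of them with 0 counts, and together they made up 0.0278 ± 0.0016% of shNTC and 0.0216 ± 0.0006% of shNEDD9 counts. MTATP6P1 (chr1:633696-634376) is 98.5% identical to MT-ATP6 and fell from 170 ± 10.4 to 135 ± 4.99 CPM (log2 fold change -0.35, SE 0.04). MTND2P28 (98.4% identical to MT-ND2) fell by 0.24 (SE 0.07) and MTCO1P12 (98.6% identical to MT-CO1) by 0.87 (SE 0.20). Because these copies are nearly identical to mitochondrial genes, their values are uncertain. MTND4P12 (chr5:134926660-134928036, 95.7% identical to MT-ND4) had 276, 215 and 238 counts in shNTC and 172, 227 and 292 in shNEDD9. It was at 47.3 ± 17.5 CPM in shNTC and 29.1 ± 0.33 in shNEDD9, without overlap. The wide shNTC spread came from replicate 2, whose 215 counts are from the smallest library. It was not called (log2 fold change -0.57, SE 0.24, edgeR adjusted p = 0.0821). MTCO2P12 had 29 counts in all and was not tested. With the pseudogene rows added, the mitochondrial share was 3.36 ± 0.06% in shNTC and 2.42 ± 0.02% in shNEDD9.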

How the data were processed

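Per the labels' protocols, the 6 VCaP samples gave column-purified total RNA, and the library kit keeps strand. What the authors deposited is a table of raw counts of reads per gene, not normalised. Per the submitters' processing notes, the tools were STAR 2.5.3a, featureCounts, Subread 1.6.2, cutadapt 1.9 and FastQC 0.11.5, with builds hg19 and GRCh38, whose roles are not given in the sources used here, nor is the treatment of reads that map to several places. Coordinates are those of GENCODE release 29 (GRCh38), which holds all 58735 identifiers. The 1 row that has no identifier was not used, and 27 symbols in date form were restored. Samples were grouped by the hairpin in their titles. The members and lists were chosen with earlier results of these data known.

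Counts were tested with edgeR 4.0.16 (glmQLFit with robust estimation, glmQLFTest, TMM factors, filterByExpr with a minimum count of 10) in R 4.3.3, with Benjamini-Hochberg adjustment over 13958 genes and a threshold of 0.05. SE is the absolute log2 fold change before moderation divided by the square root of F. The second fit set the library size to the sum of the 13 protein genes. Shares and ratios were compared by exact permutation tests. An adjusted p too small for the computer's arithmetic is given as below 1e-300. Floors of 3 counts cover counting error only. The named genes were the 37 members, NEDD9, from each nuclear list up to 4 called genes of largest change at a mean of at least 1 CPM, and the 5 most counted pseudogenes. The procedure was also run on simulated counts. Far fewer genes were changed there than were called here, so that run does not test the scaling of these data. The alternatives were other scaling factors (RLE, upper quartile, library totals, MT or small RNA rows left out), no filter or a mean of 1 CPM, DESeq2 1.42.0, limma-voom (limma 3.58.1), a replicate block, other denominators, references and weights, and leaving out 1 library at a time. Thinning of all libraries to the smallest total was added after seeing the data. The values of some single marker genes are not reported here.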

Additional observations from a re-analysis of the deposited data

How the results depend on the processing

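All 373 recomputed counts, shares and ratios kept their direction and stayed within 1.5 times (counts) of the reported values, over the alternatives run. The number of MT genes that fell was 18 to 20 and none rose (0 under each alternative); the 13 protein genes and 2 rRNAs fell under every alternative. With the replicate number as a block, 19 MT genes fell, and 4881 of all genes rose and 4953 fell. Samples with the same number did not deviate together (correlations -0.06, -0.02 and 0.01 over 6527 genes). Libraries of a group differed little beyond counting error, so these correlations cannot show whether a shared number stands for a shared batch. The exact sign permutation with that block moved no share or ratio and cannot go below p = 0.25. The difference in mitochondrial share was -0.90 to -0.99 percentage points. Of single MT genes, 3 values lost their call, all of MT-TL1, as given with that gene. Relative to the protein gene sum, 3 values changed sign, none past the threshold in either fit: MT-ND4L against all 37 rows (-0.012) and without shNEDD9 replicate 3 (-0.016), and MT-TL1 without shNTC replicate 3 (0.26). With 1 library left out these ranged from -0.016 to 0.054 for MT-ND4L and from -0.76 to 0.26 for MT-TL1. MT-ND4 passed with the 13 genes weighted equally (0.06, edgeR adjusted p = 0.0121) and without shNTC replicate 2 (0.04, edgeR adjusted p = 0.0499). MT-TL1 was too thin to test after thinning. Of the 18 tRNAs outside the filter, MT-TP was called with a mean of 1 CPM as the filter and without shNTC replicate 2 or shNEDD9 replicate 2.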
